A study of Helianthus annuus with 12 samples.

Results

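Developing sunflower seeds of 2 cultivars changed their transcripts in different ways between 17 and 27 days after flowering (DAF), and the genes described here are those whose change between these stages differed between the cultivars 86-1 and L-1-OL-1. All 12 libraries of the series entered, 3 for each of 4 groups: seeds of 86-1 at 17 DAF, seeds of 86-1 at 27 DAF, seeds of L-1-OL-1 at 17 DAF and seeds of L-1-OL-1 at 27 DAF. The study compared sunflower seeds of high and low oleic acid content, oleic acid building up rapidly at the earlier stage and staying fairly constant at the later one, per the labels. The labels used here do not say which cultivar is the high oleic one, whether seeds or plants were pooled, or whether the hull was removed. Whether the 3 libraries of a group are separate plants is not stated either, and the p-values may therefore reflect technical spread alone. Expression was deposited as FPKM (fragments scaled by gene length and library size), and the sequencing depth is unknown.

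Oilseed embryos pass from cell division through a filling phase, when storage proteins are laid down in vacuoles and triacylglycerol is packed into oil bodies coated by oleosins, to a late phase marked by LEA proteins (late embryogenesis abundant, protective proteins of drying tissue). Stearoyl-ACP desaturase makes oleic acid in the plastid. Omega-6 oleate desaturases of the FAD2 type then convert oleic acid to linoleic acid. A gene whose stage change differs between cultivars can move in opposite directions, move in one cultivar only, or move the same way by different amounts.

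For each gene the stage difference of L-1-OL-1 was subtracted from that of 86-1 on the log2(FPKM + 1) scale, a scale that understates changes of weakly expressed genes. A positive value, called the interaction here, means a higher stage change in 86-1 than in L-1-OL-1. Of 48882 genes, 30020 were tested because 3 or more libraries had an FPKM of 1 or higher; 1859 of them reached it in exactly 3 libraries, and a further 2017 genes reached it in exactly 2 and were left out. The interaction passed an adjusted p of 0.05 in limma for 6634 genes, 22.1% of those tested, of which 2553 were positive (8.5%) and 4081 negative (13.6%). The balance of signs depended on the scaling and on 1 library: 4700 were positive and 5087 negative after median-of-ratios scaling, 4484 and 4922 without replicate 1 of L-1-OL-1 at 17 DAF, and 1927 and 4562 with that library alone in its group. The median interaction over all tested genes was -0.23, moving to -0.03 after median-of-ratios scaling and -0.15 after quantile normalization, so list medians are read against it.

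More genes passed the stage test in L-1-OL-1 than in 86-1. Between the stages 6119 genes rose (20.4% of tested genes) and 6680 fell (22.3%) in L-1-OL-1, 42.6% in all, against 1388 (4.62%) and 4245 (14.1%) in 86-1, 18.8% in all. Both stage differences were called in 2752 genes, with the same sign in 2370 and opposite signs in 382. Across genes, which are not independent replicates, the stage differences of the cultivars correlated with Pearson's r of 0.336 and Spearman's rho of 0.38.

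One library stood apart. Replicate 1 of L-1-OL-1 at 17 DAF correlated with its group partners at 0.861 and 0.784, while the other pairs within a group correlated at 0.931 to 0.974. Without it 9406 interactions were called, 6297 of them shared with the full set, and all 6634 interactions kept their sign. With that library as the only one of its group, 6489 were called, 4369 of them shared, again with every one of the 6634 signs kept; the lone library is then assumed to vary like the other groups. The signs were followed only in genes already called, and the refits reuse most of the same libraries. Kept signs therefore say little about robustness, and no rate over all tested genes is given. The correlation of the stage differences was 0.184 without replicate 1 of L-1-OL-1 at 17 DAF and 0.533 with that library alone in its group. The 17 DAF group of L-1-OL-1 was also graded. Its replicates 1, 2 and 3 correlated with replicate 1 of L-1-OL-1 at 27 DAF at 0.628, 0.718 and 0.788. With replicate 1 of 86-1 at 17 DAF they correlated at 0.86, 0.753 and 0.675. Leaving out replicate 3 instead gave 7338 calls, 5924 of them shared with the full set. Sign counts by list were not made without replicate 3.

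**Figure D1:**
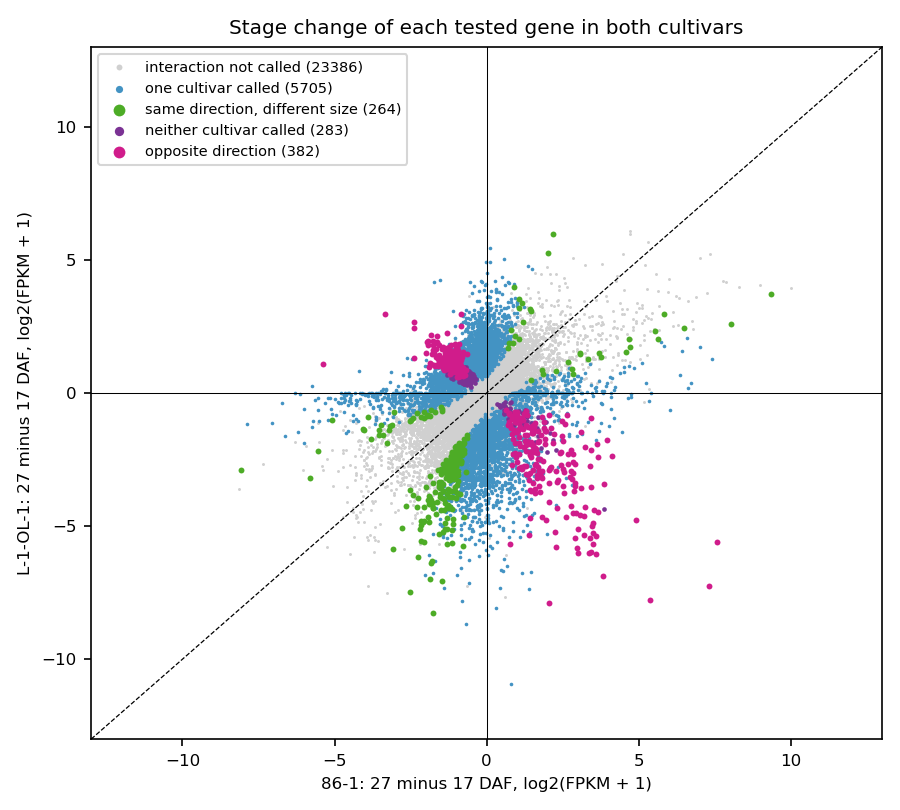
Difference between 27 and 17 DAF in 86-1 (x axis) and in L-1-OL-1 (y axis), both in log2(FPKM + 1), for each of the 30020 tested genes, coloured by type; the dashed line marks equal change. The 382 opposite-direction genes lie in the upper left and lower right, and the 5705 genes called in one cultivar lie along the axes.

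By type, 5705 interaction genes (19% of tested genes) were called at stage in one cultivar and not in the other, 382 (1.27%) in both with opposite signs, 264 (0.879%) in both with the same sign, and 283 (0.943%) in neither. By the test, the cultivars differed in more genes at the later stage. Over all tested genes, 86-1 was higher in 15.6% and lower in 11.4% at 17 DAF, 27% together, and higher in 21.2% and lower in 27.1% at 27 DAF, 48.3% together. In 4069 of the interaction genes (61.3%) the cultivars differed at 27 DAF and not at 17 DAF by the test, and in 986 at 17 DAF and not at 27 DAF. They differed at both stages with the same sign in 935 and with opposite signs in 427. Without replicate 1 of L-1-OL-1 at 17 DAF, opposite signs at both stages held for 1262 of 9406 interaction genes. The absolute difference between the cultivars was wider at 27 than at 17 DAF in 5241 of the 6634 genes, with a median of 1.55 against 0.59 in log2(FPKM + 1). Interaction genes were chosen for a change in the cultivar difference, so a change in it is fixed by that choice, though not its direction. The share of all tested genes with a wider difference at 27 DAF, or in each of these stage classes, was not computed. Whether the interaction genes stand out in these shares was therefore not tested.

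**Figure D2:**
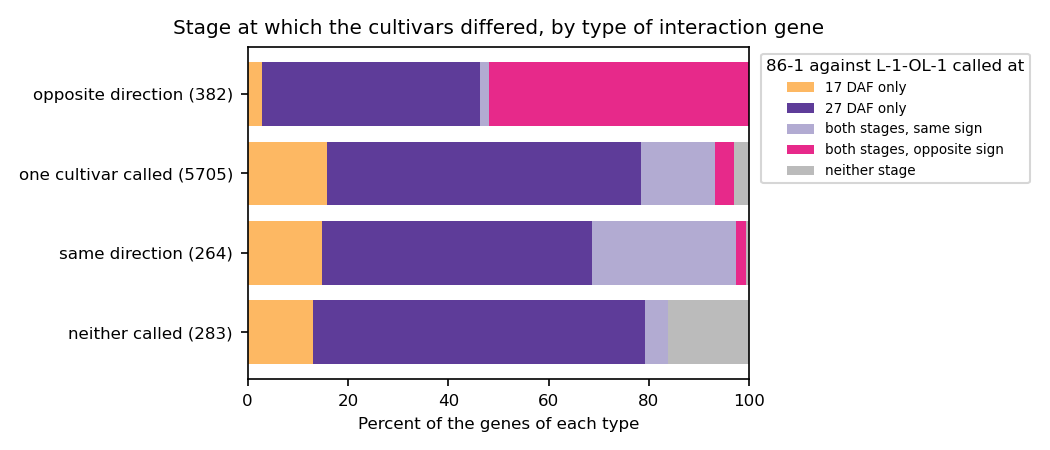
Percent of the interaction genes of each type (rows, with gene number) by the stage at which 86-1 and L-1-OL-1 differed at an adjusted p under 0.05. A difference at 27 DAF alone is the commonest class in genes called in one cultivar (62.6%), while 51.8% of opposite-direction genes exchanged order between the stages.

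Of the genes moving in opposite directions, 207 (0.69% of tested genes) rose in 86-1 and fell in L-1-OL-1, and 175 (0.583%) fell in 86-1 and rose in L-1-OL-1. In 198 of the 382 (51.8%) the cultivars differed at both stages with opposite signs, so that the higher cultivar at 17 DAF was the lower one at 27 DAF. Without replicate 1 of L-1-OL-1 at 17 DAF the type held 777 genes, 435 and 342 in the same order, and 363 of them had the same pattern as among the 382. With that library alone in its group the patterns held 195 and 79 genes.

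Among those rising in 86-1 and falling in L-1-OL-1, the biggest interaction of a named gene was that of gene71046, described as a galactose oxidase/kelch beta-propeller protein. In 86-1 its FPKM was 11.01, 1.8 and 1.47 at 17 DAF and 548, 796 and 773 at 27 DAF. In L-1-OL-1 it was 82.7, 361 and 145 at 17 DAF and 0.292, 0 and 0 at 27 DAF. The stage groups did not overlap in either cultivar, as in 354 of the 382 genes of the type and 19.8% of all tested genes (34.1% within 86-1 and 53.3% within L-1-OL-1), the level climbing from near 0 in one and dropping to near 0 in the other, and the interaction was 14.56 ± 0.84 (SE, adjusted p = 4.09e-06).

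The next pair held a lipid-transfer protein, of a family of small secreted carriers of lipids found in surface layers of plants, and a gene of a wider superfamily. For gene62341, a non-specific lipid-transfer protein, the 86-1 libraries read 1104, 5.68 and 38.6 at 17 DAF and 12865, 16309 and 9761 at 27 DAF. Seeds of L-1-OL-1 gave 770.0, 5051 and 875 and then 47.5, 16.1 and 35.6. Replicate 1 of 86-1 at 17 DAF was far above its partners, the groups still did not overlap, and the interaction was 13.17 ± 1.98 (SE, adjusted p = 0.0011). The other gene, gene2767, was described by the bifunctional inhibitor, lipid-transfer and seed storage 2S albumin superfamily, which does not say which of these it is. In 86-1 gene2767 went from 6.09, 3.07 and 6.41 to 198, 267 and 287. It went from 179.9, 729 and 355 to 1.82, 0.596 and 0 in L-1-OL-1, an interaction of 13.15 ± 0.70 (SE, adjusted p = 2.8e-06).

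Carbonic anhydrase, which interconverts carbon dioxide and bicarbonate, was the description of 2 of the named genes. In 86-1 gene38651 was at 118, 90.8 and 113 and then 383, 703 and 328, and in L-1-OL-1 at 361, 549 and 300.4 and then 3.49, 0 and 0, an interaction of 9.95 ± 0.74 (SE, adjusted p = 1.64e-05). Its rise in 86-1 was small beside its loss in L-1-OL-1. Described the same way, gene38649 fell in L-1-OL-1 only, from 11.5, 428 and 393 to 0.186, 0.307 and 0.155, while 86-1 moved from 4.24, 3.41 and 4.49 to 10.3, 16.2 and 12.9 without passing the test (adjusted p = 0.36). Its replicate 1 of L-1-OL-1 at 17 DAF was far below the other 2 libraries.

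Also of this pattern was gene66478, a pollen Ole e 1 allergen and extensin family protein, at 2.92, 0 and 0.401 and then 43.1, 61.4 and 52.7 in 86-1. In L-1-OL-1 it was at 14.1, 47.2 and 37.9 and then 0.161, 0 and 0.17, with an interaction of 9.69 ± 0.70 (SE, adjusted p = 1.5e-05). The laccase gene65042, from a family of oxidases that polymerize lignin, was at 18.1, 0.475 and 2.94 and then 48.2, 55.5 and 56.4 in 86-1. L-1-OL-1 libraries showed 33.9, 57.8 and 62.4 at 17 DAF, and at 27 DAF the gene was listed at 0 in all 3, so no fold is given.

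The reverse pattern was led by gene5852, a COBRA-like protein of a family that anchors at the cell surface and acts in cellulose deposition. In 86-1 it was at 19.6, 45.3 and 72.05 at 17 DAF and listed at 0 in all 3 libraries at 27 DAF. Its L-1-OL-1 values were 18.5, 28.03 and 35.3 and then 50.6, 62.8 and 57.5, a rise of 1.08 ± 0.39 (SE, adjusted p = 0.0433). No stage groups overlapped in either cultivar.

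A cytochrome P450 of family 78A, gene24430, was at 11.8, 64.4 and 77.1 and then 2.77, 3.32 and 2.77 in 86-1; members of this family influence organ and seed size in other plants. In L-1-OL-1 it was at 2.43, 0.985 and 4.64 and then 36.3, 23.2 and 19.2, and the interaction was -6.32 ± 0.83 (SE, adjusted p = 0.000539). The sulfate transporter family member gene39974 was at 6.76, 14.2 and 30.03 and then 1.66, 1.96 and 2.28 in 86-1. L-1-OL-1 had 0.749, 0.369 and 2.13 and then 9.06, 13.4 and 11.9, an interaction of -5.04 ± 0.63 (SE, adjusted p = 0.000362). Both genes changed order between the stages, higher in 86-1 first and higher in L-1-OL-1 later.

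Less marked were gene27488, a regulator of Vps4 activity in endosomal sorting, with an interaction of -4.02 ± 0.60 (SE, adjusted p = 0.00111), and gene44145, an asparaginase-type peptidase, with -4.83 ± 1.08 (SE, adjusted p = 0.00921). In L-1-OL-1 gene44145 was at 3.74, 0.0947 and 0.0617 and then 31.1, 8.9 and 1.74, and these groups overlapped. In gene27488 they did not overlap in either cultivar.

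**Figure D3:**
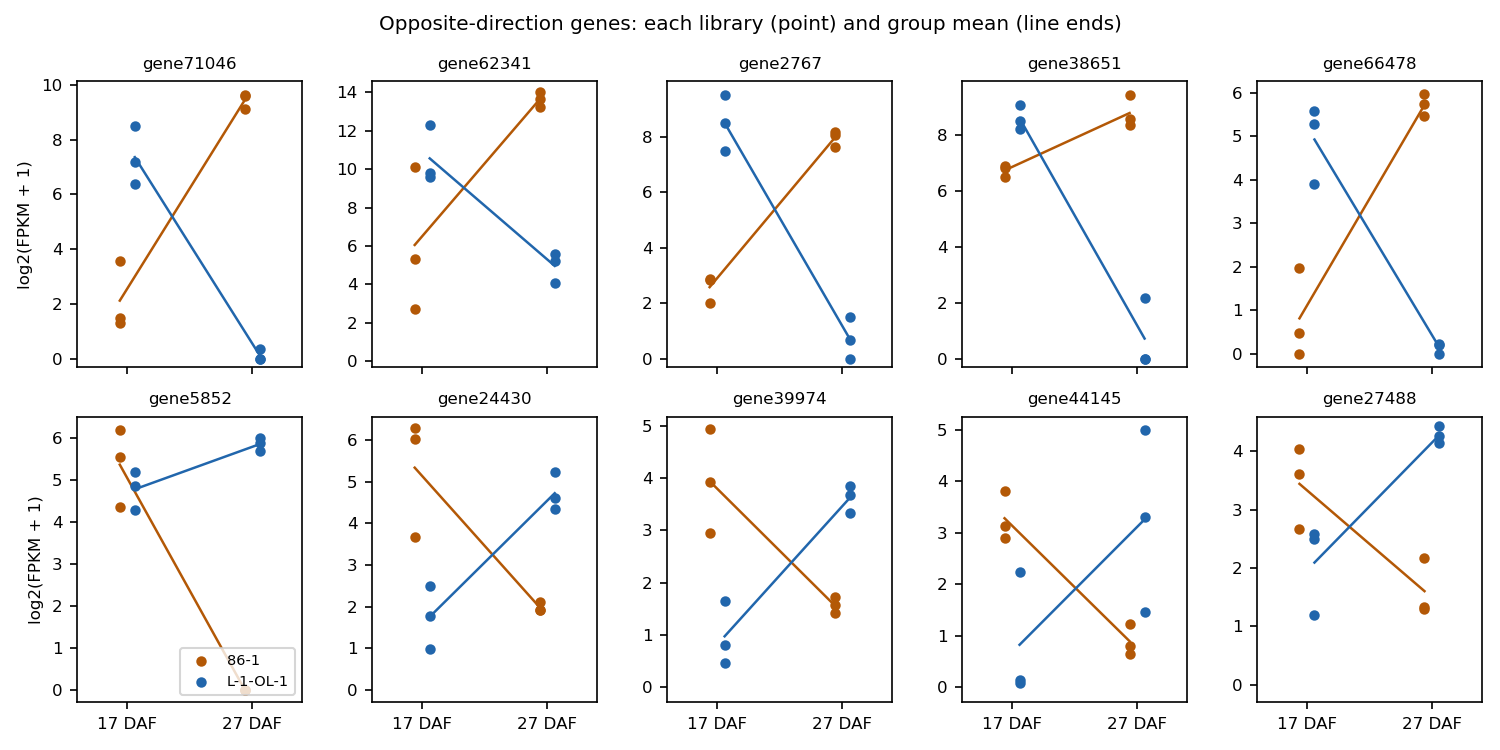
Expression in log2(FPKM + 1) of 10 opposite-direction genes, the 5 largest interactions of each pattern that the naming rule took, at 17 and 27 DAF; each point is a library, lines join group means, and the y axes differ between panels. Genes of the top row rise in 86-1 and fall in L-1-OL-1, those of the bottom row the reverse.

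Among the 5705 genes called in one cultivar, 2825 rose only in L-1-OL-1 (9.41% of tested genes), 1730 fell only in L-1-OL-1 (5.76%), 817 fell only in 86-1 (2.72%) and 333 rose only in 86-1 (1.11%). Without replicate 1 of L-1-OL-1 at 17 DAF these patterns held 2567, 2945, 1611 and 598 genes, so that falls outnumbered rises in L-1-OL-1, and with it alone in its group 3643, 1004, 492 and 259. The uncalled cultivar's difference was under 1 in log2(FPKM + 1) in 96.1% of them, and a missed threshold does not show that this cultivar stayed the same. Genes falling only in L-1-OL-1 had a median change of -2.21 there against -0.03 in 86-1. Those rising only in L-1-OL-1 had medians of 1.36 and -0.15.

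Genes that fell only in L-1-OL-1 included reserves and carriers of a filling seed. The albumin gene47905 was at 16028, 2604 and 2804 at 17 DAF and 9526, 19922 and 3211 at 27 DAF in 86-1. In L-1-OL-1 it was at 26758, 12336 and 425 and then 0.91, 1.09 and 3.84, a fall of several orders of magnitude despite a wide spread at 17 DAF, and the interaction was 11.71 ± 1.84 (SE, adjusted p = 0.00141). The SWEET transporter gene33431, of a family that exports sugars and feeds developing seeds, held 574, 572 and 559 and then 682, 877 and 567 in 86-1. It dropped from 971, 644 and 52.5 to 0.684, 0 and 0.0384 in L-1-OL-1, an interaction of 8.36 ± 1.13 (SE, adjusted p = 0.000615).

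A flavonoid enzyme and a lipid carrier also fell in L-1-OL-1 only. Dihydroflavonol 4-reductase gene57861, an enzyme of the anthocyanin and proanthocyanidin branch, was at 329.8, 285 and 235 and then 628, 697 and 204 in 86-1. In L-1-OL-1 it went from 174, 180.4 and 35.1 to 0.132, 0.119 and 0.219, an interaction of 7.17 ± 0.83 (SE, adjusted p = 0.00024). The lipid transfer protein gene1146 went from 413, 495 and 523 to 0.859, 2.67 and 2.53 in L-1-OL-1, while in 86-1 it was at 243, 56.4 and 141 and then 338, 291 and 357, an interaction of 8.75 ± 0.64 (SE, adjusted p = 1.51e-05).

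Rising only in L-1-OL-1 were 2 cystatins, inhibitors of cysteine proteases, and a berberine bridge-type oxidase. The cystatin gene48930 went from 2.25, 1.08 and 0.709 to 11.5, 46.98 and 109 in L-1-OL-1, while 86-1 was at 6.12, 42.9 and 34.3 and then 1.41, 14.6 and 6.83. The oxidase gene34506 went from 0, 8.85 and 10.3 to 435, 219 and 94.2, and stayed below 1 in every 86-1 library. Interactions were -5.90 ± 1.24 (SE, adjusted p = 0.00666) and -5.34 ± 1.09 (SE, adjusted p = 0.00584).

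In 86-1 alone, gene40078, a UDP-glycosyltransferase that attaches sugars to small molecules, rose from 0.286, 0.197 and 0.0309 to 81.3, 93.5 and 57.9. L-1-OL-1 was at 0.22, 10.3 and 6.99 and then 1.78, 2.16 and 2.32, and the interaction was 6.68 ± 0.87 (SE, adjusted p = 0.000503). The knottin gene71649, a small cysteine-rich protein, rose from 6.84, 0.693 and 2.44 to 539, 657 and 654 in 86-1, while L-1-OL-1 was already at 60.2, 889 and 1037 at 17 DAF and reached 613, 1025 and 1328. For this gene the cultivars differed at 17 DAF and not at 27 DAF by the test.

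Falling in 86-1 alone was gene16513, a cellulose synthase family member, from 29.8, 66.01 and 84.2 to 0, 0.014 and 0.106. L-1-OL-1 stood at 3.05, 3.18 and 2.93 and then 3.88, 3.77 and 3.78, with an interaction of -6.001 ± 0.45 (SE, adjusted p = 1.64e-05). The glycine-rich gene58053 fell in 86-1 from 40.1, 293 and 1190.3 to 0, 0 and 0.116, its 17 DAF libraries spreading widely. In L-1-OL-1 it went from 5.28, 0.119 and 0.727 to 0, 0.0299 and 0.0267. These groups did not overlap either, but the fall did not pass the test (adjusted p = 0.333). Of the 817 genes of this pattern, 484 (59.2%) differed between the cultivars at 17 DAF and not at 27 DAF, a share not computed for all tested genes.

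Of the 264 genes that changed the same way by different amounts, 196 fell in both and further in L-1-OL-1 (0.653% of tested genes), 32 fell further in 86-1 (0.107%), 21 rose further in 86-1 (0.07%) and 15 rose further in L-1-OL-1 (0.05%). Without replicate 1 of L-1-OL-1 at 17 DAF the type held 513 genes, 337, 52 and 23 in the first, the third and the fourth of these patterns and the rest in the second, and with it alone in its group 424, 17, 19 and 186. A cytochrome P450, gene44572, fell in 86-1 from 48.6, 86.2 and 125 to 16.6, 31.6 and 18.5 and in L-1-OL-1 from 124, 156 and 207 to 0.472, 0.219 and 0.136, an interaction of 5.11 ± 0.51 (SE, adjusted p = 8.67e-05). The late embryogenesis abundant protein gene16284 rose in 86-1 from 16.2, 18.7 and 14.4 to 49.3, 61.1 and 152 and in L-1-OL-1 from 13.7, 16.7 and 60.7 to 1526, 1634 and 1555, an interaction of -3.79 ± 0.73 (SE, adjusted p = 0.00431). A MADS-box factor, gene2759, rose in both and further in L-1-OL-1, with an interaction of -3.08 ± 0.40 (SE, adjusted p = 0.000487). The dehydrin gene55914 rose further in 86-1 (interaction 5.61 ± 1.74 SE, adjusted p = 0.0374), but that call held in only 1 of 12 fits that left out 1 library.

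In the list of ribosomal protein genes nearly all calls had one sign. Of 201 tested cytosolic ribosomal protein genes, which build the translating ribosome, 97 (48.3%) were called, 96 of them with a lower stage change in 86-1, against 22.1% of all tested genes. In 62 of them only 86-1 fell, and in 20 more 86-1 fell while L-1-OL-1 rose. The list's median interaction was -1.57, and with median-of-ratios scaling 77 were negative and 5 positive. Calls were 149 negative and 4 positive without replicate 1 of L-1-OL-1 at 17 DAF, and 44 negative and 0 positive with it alone in its group.

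The ribosomal share of the FPKM total was 3.62, 6.02 and 4.96% in the 3 libraries of 86-1 at 17 DAF and 1.38, 1.63 and 2.09% at 27 DAF. In L-1-OL-1 it was 4.78, 2.1 and 2.41% and then 3.84, 4.01 and 4.79%. Replicate 1 of L-1-OL-1 at 17 DAF was within the range of the 86-1 libraries of that stage, and the other 2 were below them. The ribosomal protein S6e gene44855 was at 449, 607 and 514 and then 152, 144 and 216 in 86-1 and at 565, 196 and 216 and then 1125, 980.0 and 1221 in L-1-OL-1, an interaction of -3.56 ± 0.57 (SE, adjusted p = 0.00163). In seed samples such as these, fewer cells of a type and less RNA per cell cannot be told apart.

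Large chaperones also had more negative than positive calls. Of 113 heat shock factor and large chaperone genes 42 (37.2%) were called, 32 negative (28.3%, against 13.6% of all tested genes) and 10 positive, and in 22 of them only L-1-OL-1 rose. The chaperonin gene6922, of the TCP-1/Cpn60 family that folds newly made proteins, was at 35.1, 61.03 and 54.4 and then 20.1, 23.9 and 32.01 in 86-1 and at 45.7, 31.2 and 36.1 and then 92.2, 97.8 and 119 in L-1-OL-1. Among 361 cell cycle and histone genes 54 (15%) were called, with 49 negative (13.6%, the share of all tested genes) and 5 positive. There were 123 negative and 9 positive calls without replicate 1 of L-1-OL-1 at 17 DAF, and 64 and 16 after median-of-ratios scaling. The histone H2B gene30908 fell in 86-1 and rose in L-1-OL-1 (interaction -2.88 ± 0.59 SE, adjusted p = 0.00581).

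**Figure D4:**
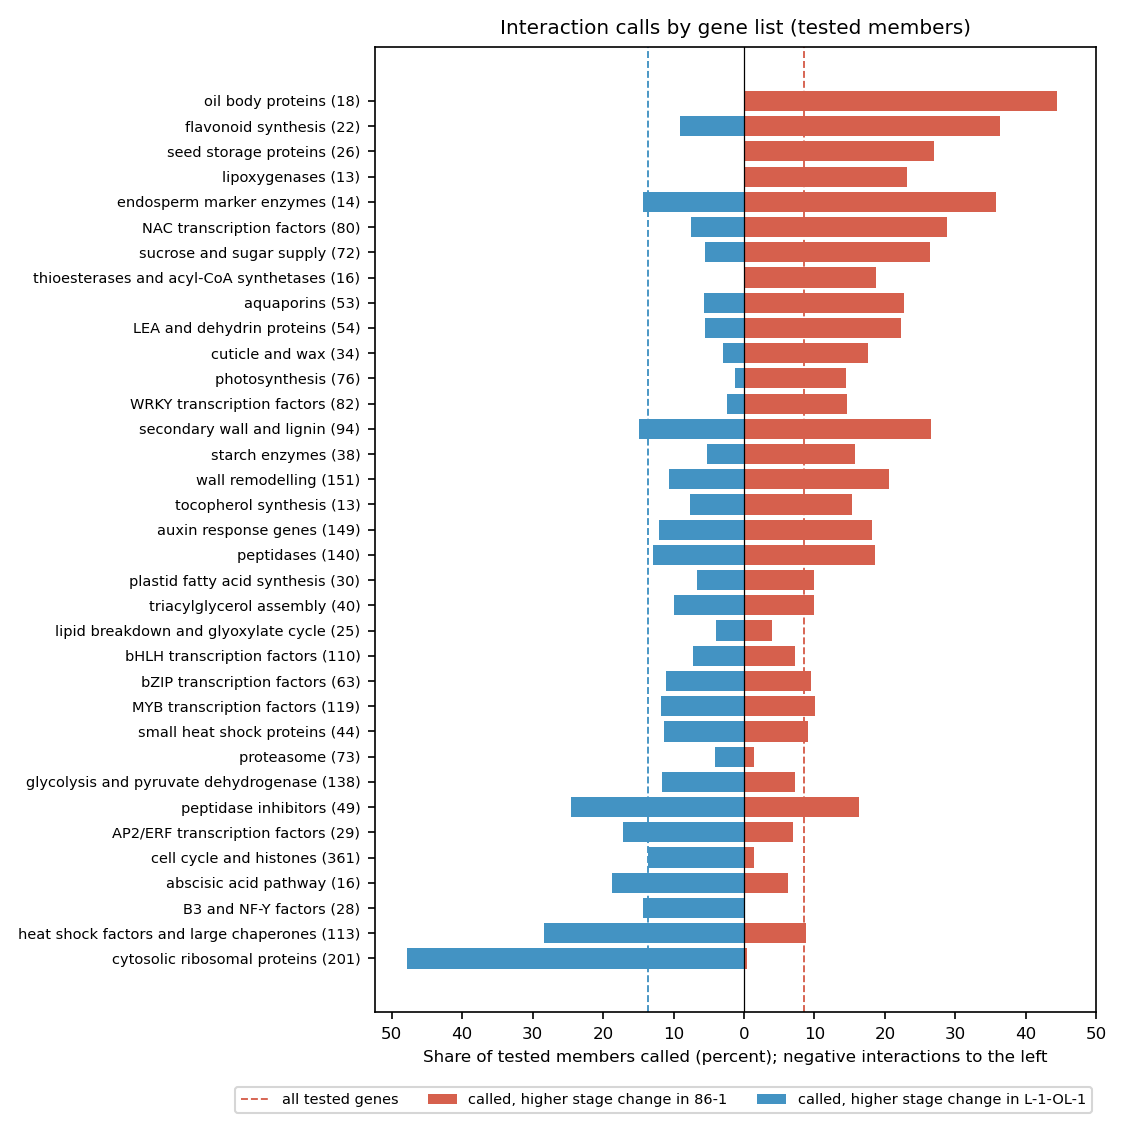
Share of the tested members of each gene list (member number in brackets) called positive, right, or negative, left, in the interaction; dashed lines mark the shares over all 30020 tested genes. Ribosomal proteins reach furthest left and oil body proteins furthest right; lists under 13 tested members are not drawn.

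Calls among reserve genes were positive. Of 26 seed storage protein genes, which encode the albumins and globulins broken down at germination, 7 (26.9%) were called, against 22.1% of all tested genes. All 7 were positive (26.9%, against 8.5% of all tested genes), and 6 of them fell in L-1-OL-1 only. Their median interaction was 3.30 against -0.23 over all genes. Storage genes took 31.9, 9.85 and 9.42% of the FPKM total in 86-1 at 17 DAF and 34.5, 25.1 and 10.3% at 27 DAF. In L-1-OL-1 they took 31.7, 18.4 and 0.796% and then 0.783, 1.1 and 2.68%, and the 17 DAF libraries of this cultivar spanned nearly the whole range seen in the series. Of the 26 interactions, 25 lay above the overall median. With replicate 1 alone in that group 22 were positive and 1 negative; without it 8 were positive and 0 negative. The 11-S globulin gene16083 had an interaction of 8.0 ± 2.17 (SE, adjusted p = 0.0218), a call lost in 5 of the 12 fits that left out 1 library.

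Oil body proteins gave 8 called of 18 tested (44.4%, against 22.1% of all tested genes), with a median interaction of 1.96. All 8 were positive, where 8.5% of all tested genes were. Their share of the FPKM total went from 2.42, 1.52 and 1.32% to 4.63, 5.54 and 6.19% in 86-1, while L-1-OL-1 was at 1.99, 2.48 and 2.48% and then 2.38, 2.16 and 2.17%. The oleosin gene71463, a coat protein of oil bodies, rose in 86-1 from 41.8, 32.02 and 29.3 to 588, 617 and 588, with L-1-OL-1 at 76.1, 157 and 73.5 and 69.6, 54.7 and 64.9, an interaction of 4.70 ± 0.44 (SE, adjusted p = 6.43e-05). The caleosin gene80552, a calcium-binding oil body protein, fell in L-1-OL-1 from 40.4, 120.0 and 81.1 to 13.8, 6.38 and 5.18 (interaction 4.42 ± 0.61 SE, adjusted p = 0.000709). In 86-1 it went from 20.2, 21.9 and 27.0 to 38.8, 65.1 and 81.8, without overlap but just missing the threshold (adjusted p = 0.0508). By the test the cultivars differed at both stages with opposite signs, L-1-OL-1 being higher first and 86-1 later.

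LEA and dehydrin genes were called in 15 of 54 (27.8%, against 22.1% of all tested genes), 12 positive and 3 negative, with a median interaction of 1.08. There were 24 positive and 4 negative without replicate 1 of L-1-OL-1 at 17 DAF, 9 and 4 with it alone in its group, where the median was 0.10, and 19 and 3 after median-of-ratios scaling. Their share of the FPKM total nevertheless ended higher in L-1-OL-1, at 7.47, 5.8 and 5.2% against 2.26, 2.52 and 4.17% in 86-1 at 27 DAF. At 17 DAF the shares were 0.498, 1.38 and 4.06% in L-1-OL-1 and 0.519, 0.317 and 0.329% in 86-1. The LEA gene gene78461 rose in 86-1 from 24.3, 3.09 and 6.19 to 968, 999 and 1641, while L-1-OL-1 was at 67.00, 370.3 and 1698 and then 1297, 1241 and 964, an interaction of 5.28 ± 1.33 (SE, adjusted p = 0.0155).

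In fatty acid and oil synthesis the called shares were near the 22.1% of all tested genes. Of 30 plastid fatty acid synthesis genes 5 (16.7%) were called, 3 positive and 2 negative, but 14 and 1 with replicate 1 of L-1-OL-1 at 17 DAF alone in its group. Of 40 triacylglycerol assembly genes 8 (20%) were called, 4 in each direction, but 10 positive and 3 negative after median-of-ratios scaling and 10 and 4 without that library. Acyl carrier protein gene32158, which holds the growing chain, fell in L-1-OL-1 from 354, 156 and 80.6 to 14.1, 15.4 and 14.1, while 86-1 was at 345.2, 378 and 306 and then 185, 250.5 and 151, an interaction of 2.58 ± 0.61 (SE, adjusted p = 0.0121). Glycerol-3-phosphate acyltransferase 5, gene31133, whose family in Arabidopsis acts in suberin rather than oil synthesis, rose in 86-1 and fell in L-1-OL-1 (interaction 6.43 ± 0.61 SE, adjusted p = 7.03e-05).

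The interaction was called in 0 of the 5 omega-6 oleate desaturase genes, 2 of the 5 having an unadjusted p under 0.05 in limma. Other settings called some: 1 without replicate 1 of L-1-OL-1 at 17 DAF, 2 with it alone in its group, 2 without replicate 1 of 86-1 at 17 DAF, 1 with either smaller pseudocount or quantile normalization, 1 without each of 3 other libraries, and 4 with array quality weights. The most strongly expressed in 86-1, gene64287, was at 905, 698 and 481 and then 568, 554 and 176 there and at 49.3, 17.97 and 2.55 and then 0.0902, 0.0735 and 0 in L-1-OL-1. Every 86-1 library was above every L-1-OL-1 library, and the interaction of 3.02 ± 1.07 (SE, adjusted p = 0.0635) missed the threshold. With a pseudocount of 0.1 or 0.5 its adjusted p was 0.0072 or 0.0297. Interactions of the other genes of this list were negative, at -4.45 for gene18808, -1.93 for gene55389, -1.21 for gene1458 and -0.39 for gene44739. The list's median interaction was -1.21. Of 2 stearoyl-ACP desaturase genes, gene48724 fell in L-1-OL-1 from 163, 76.8 and 45.8 to 11.9, 12.2 and 8.94, with 86-1 at 110.2, 128 and 125 and then 80.6, 91.5 and 53.7 (interaction 2.11 ± 0.56 SE, adjusted p = 0.0193). The call was lost without replicate 2 of 86-1 at 27 DAF or replicate 3 of L-1-OL-1 at 27 DAF. The other, gene3372, was not called (interaction 2.41 ± 1.32 SE, adjusted p = 0.207).

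Lists of sugar supply, flavonoid and secondary wall genes, matched by words in the descriptions, had mostly positive calls. No tissue is named from these lists. Among all tested genes 22.1% were called, 8.5% positive and 13.6% negative. Sucrose and sugar supply genes were called in 23 of 72 (31.9%), 19 positive and 13 of them falling in L-1-OL-1 only; flavonoid synthesis in 10 of 22 (45.5%), 8 positive; and secondary wall and lignin in 39 of 94 (41.5%), 25 positive and 14 negative. The flavonoid share of the FPKM total was 0.106, 0.111 and 0.112% and then 0.126, 0.133 and 0.0576% in 86-1, and 0.0656, 0.0777 and 0.0601% and then 0.0141, 0.0128 and 0.012% in L-1-OL-1. Sugar supply took 0.439, 0.37 and 0.295% and then 0.132, 0.14 and 0.118% in L-1-OL-1, against 0.47, 0.693 and 0.695% and then 0.344, 0.424 and 0.379% in 86-1. Secondary wall and lignin took 0.217, 0.316 and 0.389% and then 0.121, 0.166 and 0.175% in 86-1. In L-1-OL-1 that list took 0.137, 0.297 and 0.379% and then 0.11, 0.143 and 0.117%, a lower mean at 27 DAF as in 86-1. Its negative share of 14.9% was near that of all tested genes, while 26.6% were positive. The part of tissue makeup in these changes was not tested.

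Calls in the cuticle and wax list and in the endosperm marker list were also mostly positive, and no tissue is named from them either. The called share of cuticle and wax genes was near the 22.1% of all tested genes, of which 8.5% were positive and 13.6% negative. The cuticle and wax share was 0.0401, 0.0521 and 0.0536% and then 0.0344, 0.0377 and 0.0444% in 86-1 and 0.0338, 0.0579 and 0.0654% and then 0.0279, 0.0476 and 0.0397% in L-1-OL-1, with 6 positive and 1 negative call of 34 (20.6% called), against 13 and 1 without replicate 1 of L-1-OL-1 at 17 DAF and 3 and 1 with it alone in its group. Of 14 endosperm marker genes 7 (50%) were called, 5 positive and 2 negative. Their median interaction was 0.97, and 0.92 with replicate 1 of L-1-OL-1 at 17 DAF alone in its group. The agamous-like gene28536 fell in L-1-OL-1 from 11.4, 11.3 and 10.4 to 0.97, 0.942 and 0.222 (interaction 1.997 ± 0.45 SE, adjusted p = 0.00945). In 86-1 it went from 8.29, 18.8 and 18.3 to 6.5, 6.76 and 9.4, a smaller fall that did not pass the test (adjusted p = 0.0847).

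**Figure D5:**
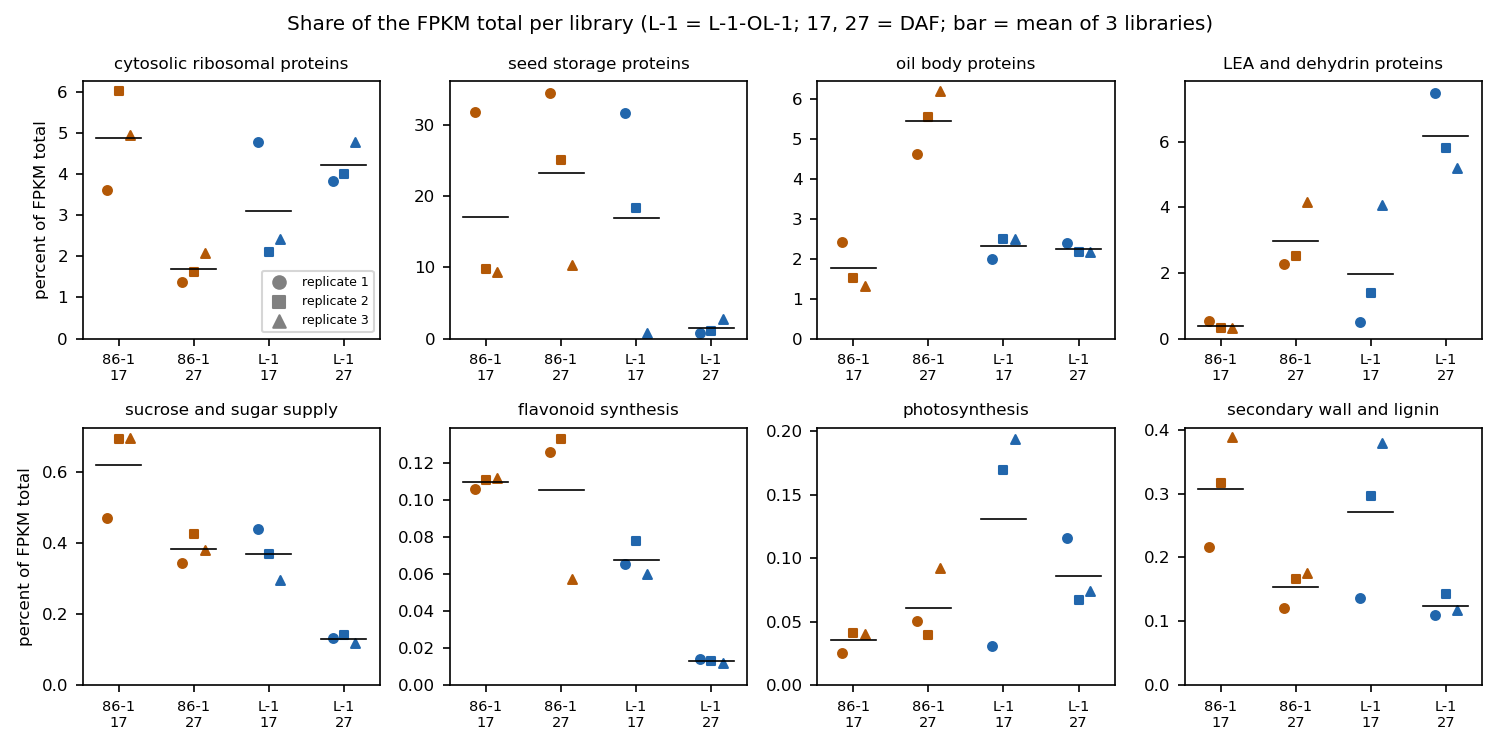
Percent of the FPKM total taken by 8 gene lists in each library (symbols mark replicate numbers, bars the mean of 3 libraries) in 86-1 and L-1-OL-1 (axis label L-1) at 17 and 27 DAF. Storage proteins differ most within groups, and the ribosomal share is lower at 27 than at 17 DAF in 86-1, while the L-1-OL-1 stages overlap.

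Photosynthesis genes depended on the library that stood apart, and with all libraries their called share was below the 22.1% of all tested genes. Of 76 tested 12 (15.8%) were called, 11 of them positive, but 50 were positive and 1 negative without replicate 1 of L-1-OL-1 at 17 DAF, and 2 positive and 3 negative with it alone in its group. The chlorophyll a-b binding protein gene46351, of the light-harvesting antenna, was at 9.06, 53.7 and 74.9 and then 6.34, 1.2 and 0.381 in L-1-OL-1 and at 2.84, 7.59 and 6.48 and then 5.3, 5.67 and 9.2 in 86-1 (interaction 3.89 ± 1.03 SE, adjusted p = 0.02). The call was lost without replicate 2 of L-1-OL-1 at 17 DAF or replicate 3 of L-1-OL-1 at 27 DAF.

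Among regulators, NAC factors, many of which act in wall formation and ageing, were called in 29 of 80 (36.2%, against 22.1% of all tested genes), 23 positive and 6 negative. There were 37 positive and 6 negative without replicate 1 of L-1-OL-1 at 17 DAF, and 15 and 11 with it alone in its group. WRKY factors, many of which act in stress responses, had 12 positive and 2 negative calls of 82 (17.1% called), against 30 and 2 without that library and 7 and 1 with it alone. MYB factors had 12 positive and 14 negative of 119 (21.8%), but 21 and 13 without it and 9 and 22 with it alone. The bHLH factors had 8 of each sign of 110 (14.5%), but 22 and 10 after median-of-ratios scaling, 17 and 11 without that library and 7 and 11 with it alone. The NAC gene57884 was at 13.04, 22.3 and 28.98 and then 141, 122 and 113 in 86-1 and at 11.1, 38.1 and 42.3 and then 1.21, 7.21 and 1.29 in L-1-OL-1, an interaction of 5.54 ± 0.79 (SE, adjusted p = 0.000864). The bHLH gene46632 rose in L-1-OL-1 only, from 2.88, 4.31 and 6.49 to 41.3, 36.3 and 41.04, with 86-1 at 3.2, 3.61 and 3.82 and then 3.45, 3.06 and 4.14.

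Transport and protein turnover added genes of both signs, beside 22.1% called among all tested genes, 8.5% positive and 13.6% negative. Aquaporins, the water channels, were called in 15 of 53 (28.3%), 12 positive and 3 negative. Within the family gene4437 rose in 86-1 and fell in L-1-OL-1 (interaction 5.83 ± 0.57 SE, adjusted p = 7.9e-05), and gene49034 did the reverse (interaction -3.85 ± 0.39 SE, adjusted p = 8.77e-05). Peptidases had 26 positive and 18 negative calls of 140 (31.4% called), and 39 and 18 without replicate 1 of L-1-OL-1 at 17 DAF. Peptidase inhibitors had 8 and 12 of 49 (40.8%), but 13 of each sign without that library and 2 and 10 with it alone, and the proteasome 1 and 3 of 73 (5.48%), but 4 and 8 after median-of-ratios scaling. Legumain gene35703, a vacuolar protease that matures storage proteins, fell in L-1-OL-1 from 153, 489.9 and 679.7 to 29.97, 5.79 and 1.17 while 86-1 was at 169, 197 and 212 and then 147, 219 and 444 (interaction 5.93 ± 1.16 SE, adjusted p = 0.00455).

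Lipoxygenases, which oxidize polyunsaturated fatty acids, were called in 3 of 13 (23.1%) and thioesterases and acyl-CoA synthetases in 3 of 16 (18.8%). Both shares were near the 22.1% of all tested genes, of which 8.5% were positive and 13.6% negative. All calls in these lists were positive. In 86-1 the lipoxygenase gene57443 was at 11.4, 4.18 and 1.76 and then 38.3, 67.8 and 39.4, and in L-1-OL-1 at 14.9, 51.7 and 29.2 and then 4.3, 1.13 and 0.377 (interaction 6.64 ± 0.87 SE, adjusted p = 0.000509). Its stages overlapped in neither cultivar. Wall remodelling had 31 positive and 16 negative calls of 151 (31.1%), and 51 and 22 without replicate 1 of L-1-OL-1 at 17 DAF. Auxin response genes had 27 and 18 of 149 (30.2%), and 17 and 15 with that library alone in its group.

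In the other lists the called share lay between 8% and 25%, beside 22.1% of all tested genes, and the balance of signs often moved. Starch enzymes had 6 positive and 2 negative calls of 38 and tocopherol synthesis 2 and 1 of 13, against 10 and 2 and 5 and 1 after median-of-ratios scaling. Lipid breakdown and the glyoxylate cycle had 1 of each sign of 25, but 5 and 1 without replicate 1 of L-1-OL-1 at 17 DAF and 1 and 4 with it alone in its group. Glycolysis and pyruvate dehydrogenase had 10 and 16 of 138 and bZIP factors 6 and 7 of 63, but 22 and 20 and 13 and 7 after median-of-ratios scaling. Small heat shock proteins had 4 and 5 of 44, but 9 and 6 without that library.

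B3 and NF-Y factors, families that include regulators of seed maturation in Arabidopsis, had 4 negative calls of 28 (14.3%, near the 13.6% of all tested genes) and 0 positive, but 3 positive after median-of-ratios scaling. The abscisic acid pathway had 1 positive and 3 negative of 16, and AP2/ERF factors 2 and 5 of 29, or 0 and 9 with replicate 1 of L-1-OL-1 at 17 DAF alone in its group. Zeaxanthin epoxidase gene16746, an early enzyme of abscisic acid synthesis, was at 24.5, 26.9 and 28.3 and then 15.6, 27.1 and 18.04 in 86-1. It fell in L-1-OL-1 from 21.1, 18.4 and 13.4 to 0.379, 0.347 and 0.036 (interaction 3.47 ± 0.37 SE, adjusted p = 0.000132), and was the one positive call of that list.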

How the data were processed

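RNA of 12 seed samples of Helianthus annuus was extracted with a plant RNA kit and sequenced on an Illumina instrument, per the labels. The authors deposited expression as FPKM. The submitters' processing notes list DESeq2 1.4.5, RSEM 1.2.12, HISAT2 2.0.4 and Bowtie2 2.2.5 with no roles; the sources used here give no genome build, annotation or filter. A second deposited table gives each gene's best protein database match with a score, which was not used; its descriptions named the genes, 28801 of 30020 tested. Gene IDs matched the reference gene table in 0 of 48882 cases, so no coordinates or sequences are printed. Near-identical family members can share reads.

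FPKM values are not counts, so limma 3.58.1 in R 4.3.3 was run on log2(FPKM + 1), with 1 mean per group, a mean-variance trend, 2-sided p-values and Benjamini-Hochberg adjustment over all tested genes at 0.05. A gene was tested if 3 or more libraries had an FPKM of 1 or higher. The procedure was tested on simulated data.

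The comparison, its members and the 37 gene lists were chosen with earlier results of these data known. List patterns, matched to the descriptions, were corrected after the files had been read: false matches were removed and gene18808 was added to the omega-6 desaturases when its values were already visible. A rule named 98 genes: taken from called genes that have a protein name and whose highest group mean is FPKM 10 or more, the largest interactions of each pattern (5 for opposite, 4 for one-cultivar and 2 for same-direction patterns), up to 2 of each list with at least 3 calls, and every tested desaturase of both kinds. Which of the 98 have their values printed was decided after the values were seen.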

Additional observations from a re-analysis of the deposited data

Results flagged for a closer look

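The opposite-direction genes with the largest interactions, 5 of each pattern, were taken from called genes, so their interaction test and direction are fixed by that choice. In 9 of these 10 the libraries of the stages also did not overlap in either cultivar, which is likewise usual for the type: it holds for 354 of all 382 opposite-direction genes, and for 19.8% of all tested genes whatever the direction. Positive interactions in log2(FPKM + 1) were 14.56 for gene71046, 13.17 for gene62341, 13.15 for gene2767, 9.946 for gene38651 and 9.686 for gene66478. Negative ones were -6.438 for gene5852, -6.317 for gene24430, -5.037 for gene39974 and -4.021 for gene27488. The value of gene5852 depends on the pseudocount, since that gene is listed at 0 in all 3 libraries of 86-1 at 27 DAF.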

How the results depend on the processing

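Of the 98 named genes 92 were called, 76 of them in all 12 fits that left out 1 library and 73 under every alternative that could be run, with 0 reversed. Leaving out 1 library moved the calls between 4025 and 9406, the opposite-direction genes between 153 and 777, the one-cultivar genes between 3511 and 7721, the same-direction genes between 76 and 518, and the genes whose cultivar difference changed sign between the stages between 202 and 1262. Opposite-direction genes moved by over 1.5 times in 9 of these 12 fits, same-direction genes in 11 and sign-changing genes in 4. The total fell from 6634 to 4338 without replicate 2 of 86-1 at 17 DAF, 4389 without replicate 2 of 86-1 at 27 DAF, 4025 without replicate 2 of L-1-OL-1 at 17 DAF and 4342 without replicate 3 of L-1-OL-1 at 27 DAF. With a mean FPKM of at least 5 there were 3632 calls (245 opposite, 3027 in one cultivar, 182 changing sign), since fewer genes were tested. Quantile normalization gave 10073 calls, with 584 same-direction genes and 670 changing sign, and median-of-ratios scaling 628 and 678. A minimum log2 difference of 1 left 251 opposite-direction genes and 277 changing sign. Keeping only replicate 1 of L-1-OL-1 at 17 DAF gave 646 same-direction genes and 154 changing sign. The positive share of calls was 38.5%, 48.9% with a pseudocount of 0.1, 48% after median-of-ratios scaling and 47.7% without replicate 1 of L-1-OL-1 at 17 DAF.

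Array quality weights had the strongest effect on the counts. The default REML estimate was run first, did not reach its convergence tolerance and put a weight of 189 on replicate 2 of L-1-OL-1 at 17 DAF; it gave 21028 calls (4754 opposite, 11610 in one cultivar, 4446 same-direction, 5125 changing sign). The gene-by-gene estimate, chosen after that result had been seen, gave 18494 (3634, 11433, 3108 and 3685). The cause of the other shifts was not tested. Replicate numbers did not pair the samples: 4 of 18 same-number pairs correlated over 0.1 in their deviations, from -0.226 to 0.459, and 7 of 18 libraries' best matches had the same number. With the replicate block 8165 genes were called, 475 of them opposite. Of the 5 omega-6 desaturases 2 passed, gene64287 with an adjusted p of 0.02403 and gene55389 with 0.02214. Their interactions had opposite signs, 3.02 and -1.93 without the block. Depth is unknown, so no counting error can be given.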
